A study of Mus musculus with 27 samples.

Results

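Gene expression in hepatocytes of the inbred mouse strain DBA/2J was set against that of 8 other inbred strains. The DBA/2J group held 3 RNA sequencing libraries, numbered 2, 3 and 4 in the labels, of the 27 libraries in the study. The comparison groups of 3 libraries each were A/J, C57BL/6J, 129S1/SvImJ, NOD/ShiLtJ and NZO/HlLtJ, which are classical laboratory strains, and CAST/EiJ, PWK/PhJ and WSB/EiJ, which descend from wild-caught mice. All mice were females of 12 weeks, and the labels name no treatment, transgene or diet. The labels call each library a biological replicate but do not say whether each came from a separate mouse, so the tests measure the spread between these libraries. Hepatocytes were taken from the liver, and messenger RNA was selected by its poly(A) tail. The study also profiled chromatin and methylated DNA in these mice to relate genotype to gene activity, and the expression data are analysed here.

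DBA/2J is among the oldest inbred strains and is widely used as a parent of genetic crosses with C57BL/6J. An inbred strain is a nearly fixed genotype, so its mice are close to genetically identical. The labels give no batch or date of preparation, so strain and any shared handling of a strain's libraries cannot be told apart. Hepatocytes, the main cell type of the liver, make plasma proteins, metabolise drugs and hormones, oxidise fatty acids and synthesise bile acids and cholesterol. They also answer interferons, the cytokines of antiviral defence, which act through the kinases JAK1 and TYK2 and a transcription factor complex containing IRF9 that binds the interferon-stimulated response element in the promoters of target genes.

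Library totals ran from 17015932 to 35078483 counts, and the 3 DBA/2J libraries held between 23890951 and 27826510. All 12 hepatocyte markers were measured, and 11 of them were not called against the other strains (median log2 fold change -0.02). Of all genes tested, 13.3% were called. The marker called was Serpina1a, higher with a log2 fold change of 1.05. Levels are given as CPM, counts relative to the scaled library total, which do not compare genes of different length. Strain labels were checked with genes known to carry strain-specific alleles. Hc, which encodes complement component C5 and carries a loss-of-function allele in DBA/2J, was at 355, 341 and 288 CPM in DBA/2J against a median of 760 CPM over the other libraries. Alad, which is duplicated in DBA/2J, was at 185, 185 and 256 CPM against a median of 119, and Glo1, also duplicated in this strain, was at 670, 655 and 561 CPM against 350. Other strains shared these levels: Hc averaged 191.6 CPM in NOD/ShiLtJ and 368.7 CPM in A/J, Alad 213.3 CPM in NZO/HlLtJ, and Glo1 948.7 CPM in A/J and 602 CPM in 129S1/SvImJ, so these genes do not single out DBA/2J. Nnt lacks part of its coding sequence in C57BL/6J mice, and its strain mean was 38.9 CPM there and 166 CPM in DBA/2J. Gpnmb, mutated in DBA/2J, held 0 to 3 counts in DBA/2J libraries and was not tested because of its low counts. The Y-linked genes Ddx3y and Eif2s3y held 0 counts in all libraries.

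The main comparison was the DBA/2J mean minus the mean of the 8 other strain means on the log2 scale, fitted with edgeR's quasi-likelihood test over 14482 genes. A gene was called at a Benjamini-Hochberg adjusted p under 0.05. It called 1923 genes, or 13.3% of those tested, of which 1376 (9.5%) were higher and 547 (3.78%) were lower in DBA/2J. Differences of at least 2-fold were found for 770 of the genes called higher and 222 of those called lower, while the median log2 fold change of all genes was 0.01. A call did not make a gene particular to DBA/2J, since for 1096 of the called genes (57%) the DBA/2J mean lay inside the range of the other strain means. Because the contrast averages logarithms, 54 genes were called higher although their DBA/2J mean was below the mean of the other strains in CPM. Only 61 genes were called when the 24 other libraries were treated as 1 group, so that the differences among the other strains became part of the error.

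Stricter rules were therefore added. A gene was "outside" when it was called and all 3 DBA/2J libraries lay above, or all below, each of the 24 other libraries. There were 115 such genes (0.794%), with 79 higher (0.546%) and 36 lower (0.249%). Without DBA/2J replicate 4, when fewer libraries had to clear the others, there were 277, 175 higher and 102 lower. A gene was "set apart" when DBA/2J differed from each of the 8 strains in the same direction, taking the largest of the 8 pairwise p-values and adjusting it over all genes. This held for 14 genes (0.0967%), 7 higher (0.0483%) and 7 lower (0.0483%). The same rule with another strain in the place of DBA/2J gave 12 genes for NOD/ShiLtJ, 17 for C57BL/6J, 19 for 129S1/SvImJ, 20 for A/J, 24 for NZO/HlLtJ, 100 for WSB/EiJ, 356 for PWK/PhJ and 491 for CAST/EiJ. DBA/2J also had the fewest genes called against the mean of the others, with counts between 2162 and 5488 in the other strains.

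Pair by pair, the share of genes called between DBA/2J and another strain was smallest for C57BL/6J, at 9.06%, then 10.2% for NOD/ShiLtJ and 10.9% for A/J. It was 13.8% for WSB/EiJ, 14.2% for NZO/HlLtJ and 14.6% for 129S1/SvImJ. The wild-derived PWK/PhJ and CAST/EiJ had the largest shares, 26.4% and 32.2%. These shares do not rank the classical strains by likeness to DBA/2J: C57BL/6J had the lowest mean Pearson correlation of the 5 with the DBA/2J libraries, 0.938 in log2 CPM across genes, which are not independent, against 0.946 for NOD/ShiLtJ and NZO/HlLtJ. Of the 1923 called genes, 51 also passed the pairwise test against all 8 strains, and 1294 passed it against 4 or fewer.

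**Figure D1:**
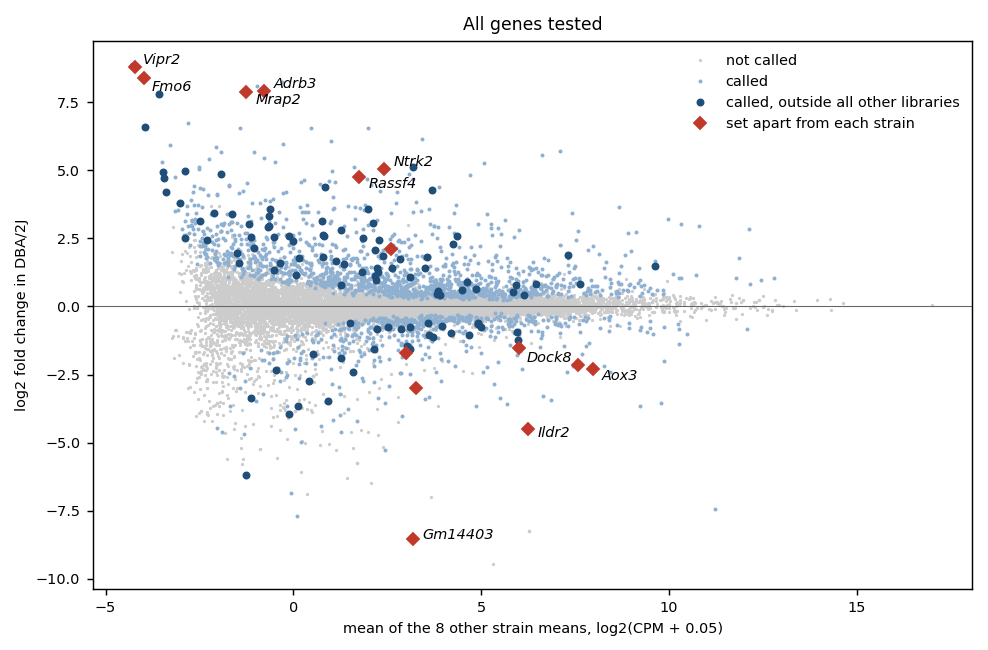
Log2 fold change of all 14482 genes in DBA/2J against the mean level of the other strains in CPM on a log2 scale, with 1 point per gene. The 115 genes outside all other libraries (dark blue circles and red diamonds) lie in both directions, and the 14 genes set apart from each strain (red diamonds) include Vipr2, Fmo6, Adrb3 and Mrap2 at the top and Gm14403 and Ildr2 at the bottom.

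The genes set apart in the upward direction are described first. Ntrk2, the receptor TrkB for brain-derived neurotrophic factor, was at 172.5, 121 and 57.3 CPM in DBA/2J replicates 2, 3 and 4, while the other libraries ran from 0 to 16.3 CPM with a median of 3.72. All DBA/2J libraries lay above all others, with replicate 4 the lowest of the 3. The log2 fold change was 5.06 ± 0.36 (SE), a 33.4-fold difference, with an adjusted p of 8.38e-11. Adrb3, the beta-3 adrenergic receptor through which noradrenaline drives fat breakdown in adipocytes, was at 17.31, 17.98 and 9.37 CPM. Its highest other library, a C57BL/6J library, held 1.68 CPM, and the libraries of NZO/HlLtJ, CAST/EiJ, PWK/PhJ and WSB/EiJ held none. The log2 fold change of Adrb3 was 7.92 ± 0.34 with an adjusted p of 4.02e-11, and the smallest pairwise log2 difference was 3.43, against A/J. The 4 strains at 0 counts each entered the average with a fitted difference of 11.71, which depends on the prior count, so the average is no measure of size; the mean was 14.89 CPM in DBA/2J and 0.536 CPM over the other strains. Adrb3 shares 839 exonic bases with a predicted gene on the opposite strand, whose reads cannot be told apart in a library that does not keep the strand.

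Mrap2, an accessory protein of melanocortin receptors, was at 6.545, 5.925 and 9.468 CPM in DBA/2J. It was detected at 1.72 CPM in NZO/HlLtJ, the next highest strain mean, and the highest other library held 2.31 CPM. Vipr2, a receptor for vasoactive intestinal peptide, held 44, 70 and 100 counts in the DBA/2J libraries, or 1.86, 3.52 and 3.19 CPM. The 24 other libraries together held 3 counts of Vipr2, a ratio of 650 per sequenced count with a 95% counting interval of 219 to 3176. Such intervals cover counting error only.

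Rassf4, a Ras association domain protein, was at 73.6, 54.7 and 93.2 CPM, and no other library passed 8.15 CPM. Its log2 fold change was 4.76 ± 0.22 (adjusted p = 5.01e-14). Fmo6, a gene of the flavin-containing monooxygenase cluster on chromosome 1, held 88, 112 and 162 counts in DBA/2J and 9 counts in all other libraries together, a ratio of 366 with an interval of 191 to 808. The last gene set apart upward, the unclassified transcript Gm36958, was at 22.1, 21.8 and 25.5 CPM with a highest other library of 12.03 CPM, and its deposited counts were not whole numbers in any of the 27 libraries, as happens when reads that fit several genes are divided between them.

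Downward, the largest difference in a gene with a known product was that of Ildr2. This immunoglobulin-like domain receptor was first cloned as a diabetes candidate in mice carrying a DBA-derived segment of chromosome 1. Ildr2 was at 2.618, 3.465 and 1.435 CPM in DBA/2J, and the other libraries ran from 9.38 CPM in a PWK/PhJ library to 146 CPM with a median of 93.6. PWK/PhJ had the lowest other strain mean, 11.4 CPM, and 129S1/SvImJ the highest, 137 CPM, and no library overlapped DBA/2J. Its log2 fold change was -4.49 ± 0.27 (adjusted p = 6.70e-12). The gene lies on chromosome 1 from 166254139 to 166316823 (GRCm38, plus strand), and 911 of its exonic bases overlap a gene on the other strand.

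Aox3, an aldehyde oxidase of the liver that handles drugs and aromatic heterocycles, was at 53.2, 42.1 and 48.0 CPM. The other libraries ran from 95.4 to 482 CPM with a median of 228, a log2 fold change of -2.29 ± 0.22 with an adjusted p of 3.66e-08. The smallest pairwise difference was -1.30, against WSB/EiJ. Dock8, an activator of the small GTPase CDC42 that is best known in lymphocytes and dendritic cells, was at 26.86, 19.99 and 16.29 CPM against 41.6 to 129 CPM in the others. Its log2 fold change was -1.54 ± 0.15 (adjusted p = 2.19e-08). DBA/2J libraries were the lowest of all 27 for both genes.

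The other genes set apart downward had counts that were divided between similar genes in 25 to 27 libraries, so their levels are uncertain. Rpsa, a protein of the small ribosomal subunit, was at 36.7, 41.6 and 45.9 CPM against 79.7 to 277 CPM, and its log2 fold change was -2.15 ± 0.14. Its processed copy Rpsa-ps10 went the other way, at 114, 129 and 151 CPM in DBA/2J against a median of 1.93 CPM, with a log2 fold change of 4.83 ± 0.23. The sum of both was 150, 171 and 197 CPM in DBA/2J and 147 to 279 CPM in the other libraries, so the summed levels overlapped. CAST/EiJ and PWK/PhJ also showed Rpsa-ps10, with strain means of 86.3 and 110 CPM, while the other 6 strain means were between 1.15 and 2.29 CPM. The zinc finger gene Zfp277 was at 2.79, 1.66 and 2.71 CPM against 5.62 to 11.9 CPM. The pseudogene 5830417I10Rik was at 0.718, 1.21 and 1.56 CPM against 6.96 to 12.5 CPM. Gm14403, a predicted gene, held 1 count over the 3 DBA/2J libraries and at least 1.83 CPM in every other library.

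**Figure D2:**
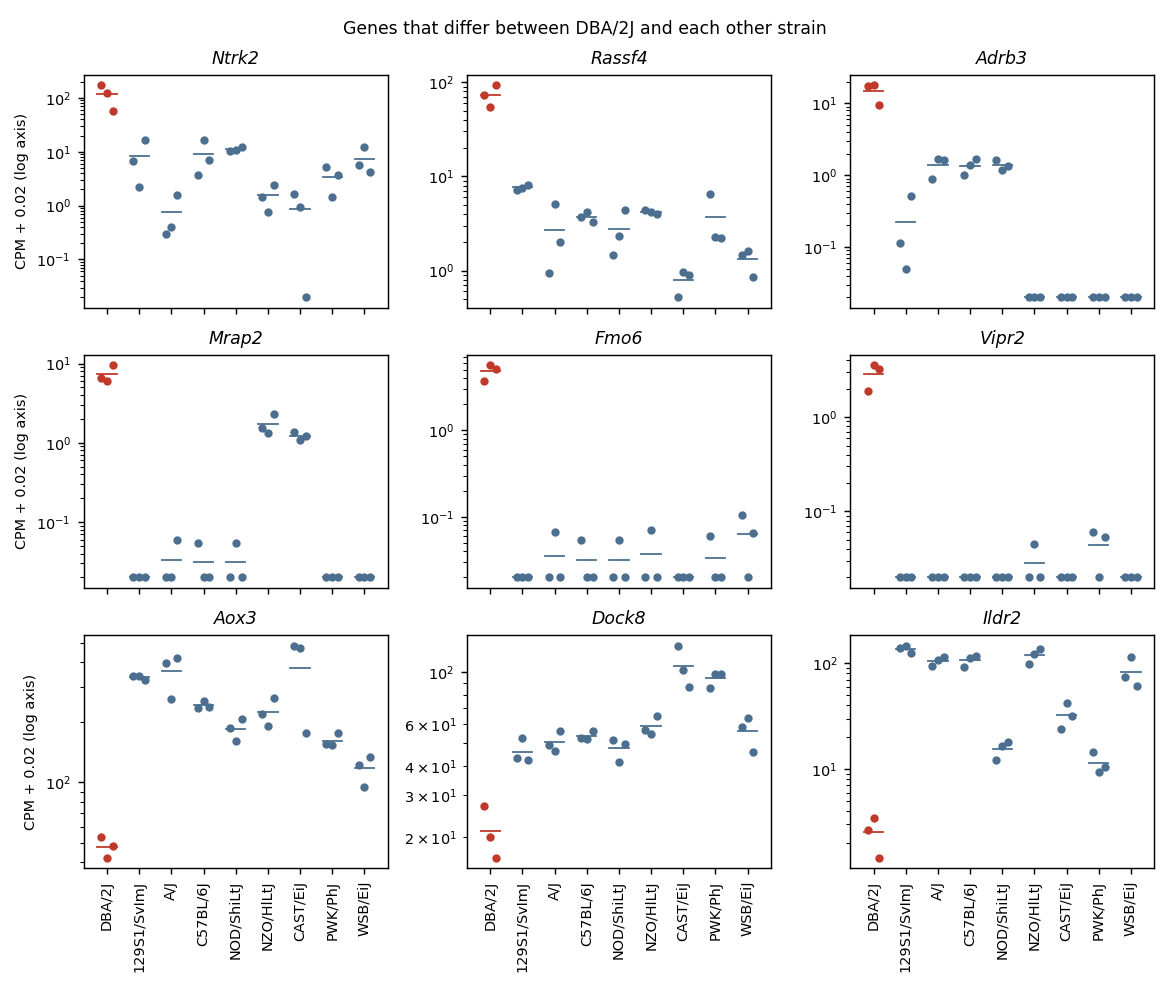
Level of 9 genes set apart in DBA/2J in each of the 27 libraries, by strain, in CPM plus 0.02 on a log axis that differs between panels; points are libraries and lines are strain means. The DBA/2J points (red) lie above all others for Ntrk2, Rassf4, Adrb3, Mrap2, Fmo6 and Vipr2 and below all others for Aox3, Dock8 and Ildr2.

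How firmly these 14 genes stood apart differed. Rassf4, Ildr2, Dock8, Rpsa, Zfp277, Gm36958, Gm14403 and 5830417I10Rik were set apart under all 35 alternatives that allowed the rule, and Adrb3 and Fmo6 under 34. Aox3 and Vipr2 were set apart under 30 of the 35. Ntrk2, whose adjusted p under the rule was 0.0467, stayed set apart under 18, and Mrap2 under 17. Leaving out DBA/2J replicate 2 or 3 ended the rule for Ntrk2, Mrap2 and Aox3 in the first case and for these and Vipr2 in the second, and leaving out replicate 4 ended it for Mrap2 and Aox3.

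The wider group of genes outside all other libraries held 102 protein-coding genes, where 12820 of all 14482 genes were protein-coding. Counts were divided in most libraries for 37 of the 115 (32.2%), against 27.7% of all genes tested. Upward genes were named only if protein-coding, at 5 CPM or more in DBA/2J and not known by a predicted-gene or clone name, which left 40. The largest difference among these not yet described was that of Raet1d, which encodes a ligand of the NKG2D receptor of natural killer cells. It was at 79.05, 80.3 and 49.3 CPM in DBA/2J and reached 41.7 CPM in a C57BL/6J library, with a median of 2.54 CPM. The log2 fold change was 5.12 ± 0.22 with an adjusted p of 9.01e-15, and it was called against 7 of the 8 strains. Its neighbour on chromosome 10, Raet1e, was at 26.01, 25.46 and 13.49 CPM with a highest other library of 12.98 CPM. The exons of both genes overlap by 363 bases and their counts are divided, so they are not separate observations. Evc2, a protein of the primary cilium in hedgehog signalling, was at 11.5, 12.4 and 9.18 CPM against a highest other value of 8.41 CPM. Col5a3, a chain of type V collagen, was at 24.1, 32.8 and 16.2 CPM and reached 15.5 CPM in an A/J library. Dhrs9, a dehydrogenase of retinol and steroids, was at 9.12, 8.84 and 9.85 CPM against at most 7.70 CPM. St6galnac4, a sialyltransferase, was at 11.2, 11.7 and 5.58 CPM against at most 4.07 CPM and was called against all 8 strains. Cep152, a centriole duplication protein, was at 20.56, 14.91 and 14.03 CPM against at most 11.9 CPM.

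Genes outside in the downward direction included 4 with parts in the transport, tagging or glycosylation of proteins. Gnptab, which makes the mannose 6-phosphate tag that sends enzymes to lysosomes, was at 7.14, 5.72 and 5.10 CPM against at least 8.70 CPM elsewhere. Sec22c and Trappc6a, both of transport between the endoplasmic reticulum and the Golgi, were at 2.36 to 3.77 CPM and at 2.11 to 3.61 CPM, with lowest other values of 4.09 and 4.43 CPM. Galnt2, which starts mucin-type glycosylation and has divided counts, was at 13.9, 12.7 and 10.5 CPM against at least 14.7 CPM. The log2 fold changes of these 4 genes lay between -1.03 and -1.57. They were taken from the 36 genes after their values were seen, and no list of such genes was tested. Spp1, the secreted protein osteopontin, was at 0.169, 0.653 and 0.606 CPM against 0.829 to 6.36 CPM (log2 fold change -2.42 ± 0.36).

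Interferon-stimulated genes formed the clearest group. Of 31 members tested, 24 were called higher in DBA/2J and 0 lower, against a background of 9.5% called higher. Their median log2 fold change was 1.52, and 17 of the 31 had their highest strain mean in DBA/2J. That this list is highest in DBA/2J was known from earlier work on these data when the list was set, so the count is a description. In the lower direction 0 members had an unadjusted p under 0.05 with edgeR, and DESeq2 called 25 higher and 0 lower. When the 24 other libraries formed 1 group with no strain term, 1 of the 31 was called. The 7 members not called had log2 fold changes from -0.60 (Ifi204) to 1.53 (Oas2). The list held 33 genes, of which 31 passed the filter on low counts. Of the 31, 6 were outside all other libraries, namely Ifi44, Xaf1, Oas1a, Ifi27, Ifit3 and Dhx58, where 0.546% of all genes were called higher and outside.

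Ifi44 was at 7.22, 10.2 and 6.69 CPM in DBA/2J against 0 to 4.28 CPM, with a median of 1.68 CPM and a log2 fold change of 3.12 ± 0.27 (adjusted p = 3.05e-09). Ifi27, a small mitochondrial protein induced by interferon, was at 72.4, 96.3 and 66.5 CPM against 2.06 to 39.2 CPM, with a log2 fold change of 2.31 ± 0.15, and was called against each of the 8 strains. Oas1a, a sensor of double-stranded RNA, was at 3.55, 5.42 and 3.06 CPM against at most 2.14 CPM (2.42 ± 0.40). Xaf1, which promotes apoptosis, was at 14.4, 16.9 and 16.2 CPM, and its highest other library held 14.1 CPM in PWK/PhJ. The PWK/PhJ mean of Xaf1 was 11.2 CPM. DBA/2J and PWK/PhJ were thus the high pair for Xaf1, while for Ifi27 PWK/PhJ was the lowest strain, with a mean of 3.12 CPM. Dhx58, the RNA sensor LGP2, was at 11.15, 18.08 and 15.33 CPM and just cleared an NZO/HlLtJ library at 11.14 CPM. Ifit3, which binds to viral RNA complexes with other IFIT proteins, was at 12.5, 18 and 15.5 CPM and just cleared an NZO/HlLtJ library at 12.5 CPM.

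Other members overlapped with single libraries of other strains. Isg15, a ubiquitin-like modifier, was at 6.33, 11 and 12.1 CPM, and 4 of the 24 other libraries reached the lowest of these, up to 10.8 CPM in NOD/ShiLtJ. Rsad2, the antiviral enzyme viperin, was at 19.0, 28.5 and 13.6 CPM, with 1 other library within that range. Usp18, which removes ISG15 and limits interferon signalling, was at 10, 18.7 and 15.1 CPM, and 2 other libraries reached that range. The log2 fold changes of Isg15, Rsad2 and Usp18 were 2.05 ± 0.24, 2.10 ± 0.22 and 1.94 ± 0.24. Mx2 was called higher with a log2 fold change of 1.11 but DBA/2J was not its highest strain, and its mean of 8.61 CPM was below the mean of 10.9 CPM over the other strains. Mx1, disrupted in many laboratory strains, had a log2 fold change of 0.34 and did not pass.

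Of 24 upstream receptors, kinases, sensors and transcription factors tested, 5 were called higher and 0 lower (20.8% called, against 9.5% and 3.78% of all genes called higher and lower), with a median log2 fold change of 0.25. At an unadjusted p under 0.05 these counts were 10 and 0, where 3497 of all 14482 genes passed in either direction, and DESeq2 also called 5 and 0. They included Irf7, Irf5, Irf9 and the RNA sensor Ddx58 (RIG-I). Irf7, the factor that amplifies interferon production, was at 24.8, 42.4 and 29.6 CPM against 1.29 to 22.3 CPM, with a log2 fold change of 1.82 ± 0.21 (adjusted p = 4.14e-07), and lay outside all others. Ddx58 was at 31.1, 32.6 and 38.1 CPM against 13.8 to 27.5 CPM, also outside, with a smaller difference of 0.61 ± 0.10. The receptor gene Ifnar1 was at 49.6, 49.7 and 37.7 CPM against a median of 34.8 CPM and was not called.

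Immunity-related and guanylate-binding GTPases, which respond to interferon-gamma and attack the vacuoles of intracellular pathogens, had 6 of 14 members called higher and 0 lower, against 9.5% and 3.78% of all genes. Their median log2 fold change was 0.87, but 2 of the 14 had DBA/2J as the highest strain, and 0 were outside. The counts at an unadjusted p under 0.05 were 10 higher and 0 lower, against 3497 of all 14482 genes in either direction, and DESeq2 called 6 and 0. Against the 5 other classical strains alone, 2 GTPases and 2 signalling genes were called higher, where 991 of all 14482 genes were called higher. Gbp11 was at 83.1, 87.9 and 104 CPM, and an A/J library held 207 CPM. Iigp1 was at 234, 233 and 322 CPM against a median of 184 CPM, with an A/J library at 353 CPM. In the antigen presentation list of MHC class I, 10 of 18 were called higher and 1 lower, against the same 9.5% and 3.78% of all genes, with a median of 0.74. Nlrc5, the transcriptional activator of class I genes, was at 29.2, 22.1 and 21.6 CPM against 5.64 to 29.0 CPM, and the peptide transporter Tap1 was at 49.4, 57.1 and 30.7 CPM against a median of 21.9 CPM. Without DBA/2J replicate 3, 6 members of this list were called higher. H2-K1 was the member called lower, with 224, 376 and 181 CPM against 135 to 2248 CPM, and was not called without DBA/2J replicate 2 (adjusted p = 0.108) or replicate 4 (0.107). Class I genes are highly polymorphic and close in sequence, and the counts of H2-K1 were divided in all 27 libraries, so its level is uncertain.

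The interferon-stimulated response element was searched in the 250 bases before the start of each gene in RefSeq's promoter table (GRCm38.p6), as the core GAAA and GAAA with NN (any 2 bases) between them, or on the other strand TTTC and TTTC with NN between them. The core was present in 2.98% of all 32851 promoters of that length. It was present in 10 of the 20 interferon-stimulated members matched by symbol (50%), in 8 of 9 matched GTPases, in 2 of 22 signalling genes and in 0 of 18 matched genes of fatty acid oxidation. Among the 16 matched interferon-stimulated genes called higher, 8 held it. The windows below show 5 of these 8 and the 2 GTPases Gbp7 and Igtp, with up to 20 bases on each side of the core and the core in capitals, because these genes were called higher together in DBA/2J. The sequence is that of the C57BL/6J reference, not of DBA/2J, and a match is not a measured binding site.
Isg15 (chr4:156200855-156200904, minus strand): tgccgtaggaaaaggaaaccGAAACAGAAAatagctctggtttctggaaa
Ifit1 (chr19:34640784-34640833, plus strand): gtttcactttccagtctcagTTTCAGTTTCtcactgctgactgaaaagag
Ifit3 (chr19:34583387-34583436, plus strand): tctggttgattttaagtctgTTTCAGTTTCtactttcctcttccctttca
Oas1a (chr5:120907526-120907559, minus strand): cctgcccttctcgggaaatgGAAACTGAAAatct
Bst2 (chr8:71537567-71537616, minus strand): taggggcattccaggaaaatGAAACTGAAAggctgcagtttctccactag
Gbp7 (chr3:142530263-142530312, plus strand): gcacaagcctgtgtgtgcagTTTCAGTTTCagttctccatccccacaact
Igtp (chr11:58199502-58199551, plus strand): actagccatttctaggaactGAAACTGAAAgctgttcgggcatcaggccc
Isg15 holds 3 matches in its promoter window, Ifit1, Ifit3, Oas1a and Bst2 hold 2 each, and Gbp7 and Igtp hold 1. The capitals mark 1 match per gene. In Isg15, Oas1a and Bst2 a further match overlaps the marked one and so ends in capitals. The other further matches in Isg15 and Ifit1 are in lower case, and that of Ifit3 lies outside the bases shown. The core shown lay 14 bases before the start in Oas1a, 66 in Isg15, 85 in Ifit1, 122 in Ifit3, 124 in Bst2, 53 in Gbp7 and 34 in Igtp, counted from the first base of the core. Bst2, the membrane tether of budding virus known as tetherin, had the smallest difference of these genes, with a log2 fold change of 0.69 ± 0.17. Ifit1, which binds foreign RNA caps, was at 9.88, 16.1 and 19.7 CPM, with 3 other libraries reaching that range, and had a log2 fold change of 2.07 ± 0.28.

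**Figure D3:**
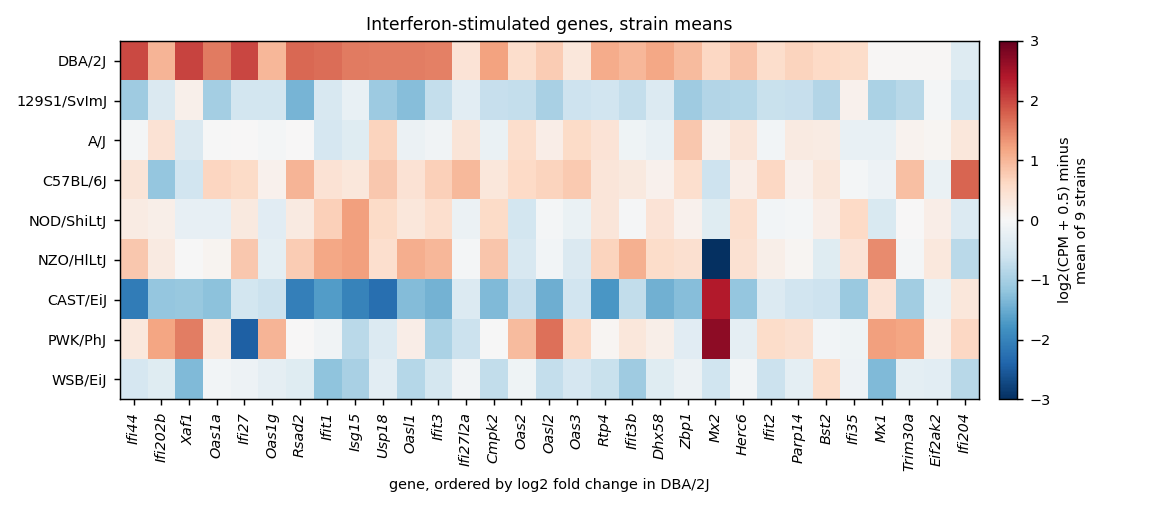
Strain means of the 31 interferon-stimulated genes as log2(CPM + 0.5) minus the mean of the 9 strains, with genes ordered by their log2 fold change in DBA/2J and colours cut at 3 in either direction. The DBA/2J row is the highest for 17 genes, while Mx2 is highest in PWK/PhJ, where Ifi27 is lowest.

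Of 25 genes of peroxisomal and mitochondrial fatty acid oxidation tested, 5 were called lower and 1 higher, against 3.78% called lower among all genes, with a median log2 fold change of -0.34. DBA/2J had the lowest strain mean for 11 of the 25, and the summed level of the list was the lowest of the 9 strains, at 6819, 9071 and 8038 CPM. The sums of the other libraries began at 8034 CPM, so the ranges overlapped. Ehhadh, a bifunctional enzyme of peroxisomal beta-oxidation, was at 230, 257 and 239 CPM against a median of 359 CPM. Acaa1b, a peroxisomal thiolase, was at 354, 476 and 406 CPM against a median of 700 CPM. Slc25a20, which carries acylcarnitines into mitochondria, was at 53.0, 65.1 and 48.9 CPM against a median of 79.5 CPM, and Acadvl, the very long-chain acyl-CoA dehydrogenase, at 243, 248 and 305 CPM against 342 CPM. Log2 fold changes of these 4 were -0.68 ± 0.21, -0.78 ± 0.20, -0.56 ± 0.13 and -0.36 ± 0.12. Ppara, the receptor that drives many of these genes, was at 32.5, 30.0 and 39.3 CPM against a median of 54.8 CPM and just missed the threshold (adjusted p = 0.0501). Other genes went the other way. Vnn1 was called higher (0.93 ± 0.25, but adjusted p = 0.271 without DBA/2J replicate 3). Cyp4a14 had a positive log2 fold change of 0.92 that was not called. A part of Ppara in these differences was not tested. Without DBA/2J replicate 2, which had the lowest sum, 2 of the list were called lower, and DESeq2 called 8 lower.

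Of 19 lipogenic genes, 5 were called higher and 0 lower, against 9.5% and 3.78% of all genes, namely Acly, Fasn, Srebf1, Acacb and Gpam. In the lower direction 1 had an unadjusted p under 0.05, DESeq2 called 5 higher and 0 lower, and without DBA/2J replicate 2 or replicate 3 edgeR called 1 higher. Acly, which makes cytosolic acetyl-CoA, was at 324, 371 and 315 CPM, above all other libraries, which ended at 312 CPM (log2 fold change 0.83 ± 0.19). Fasn, the fatty acid synthase, was at 819, 844 and 870 CPM against a median of 435 CPM, with 4 other libraries reaching its range, and its call was lost without any 1 of the DBA/2J libraries (adjusted p = 0.0724 to 0.0908). Srebf1, the transcription factor that activates lipogenic genes, was at 880, 778 and 775 CPM against a median of 415 CPM. For cholesterol synthesis, 22 of 23 genes had positive log2 fold changes with a median of 0.63, but 4 were called higher, against 9.5% of all genes, namely Dhcr7, Fdps, Insig1 and Tm7sf2. Dhcr7, the last enzyme of the pathway, was at 203, 286 and 116 CPM against a median of 98.9 CPM. The sterol list differed between the DBA/2J libraries, with sums of 5642, 6043 and 3532 CPM. It had 0 members called without replicate 3 and 9 without replicate 4. Without replicate 2 it had 1, against the 5 other classical strains 0, and without WSB/EiJ replicate 2 it had 14. With all libraries, it had 13 without the filter on low counts, 9 with the Kupffer and endothelial means as covariates and 2 with a replicate block, so the count depends on the setting as well as on single libraries. In the main comparison 14 members had an unadjusted p under 0.05 and positive differences, 0 had one with a negative difference, and DESeq2 called 4 higher and 0 lower.

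**Figure D4:**
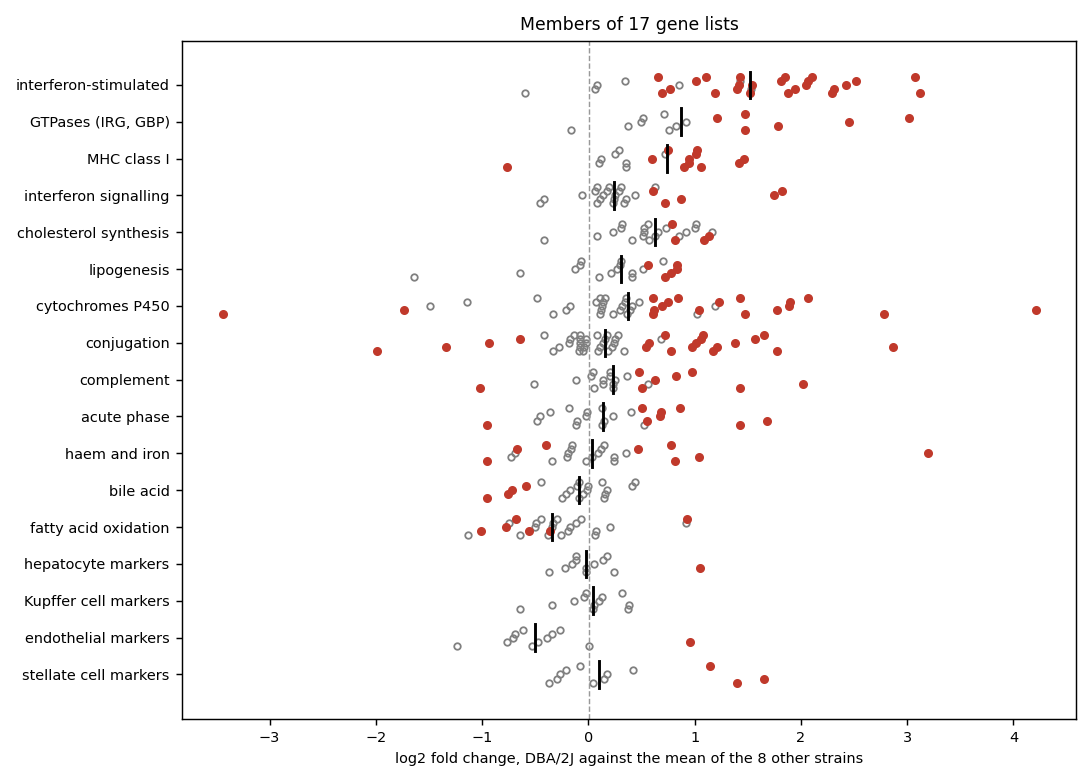
Log2 fold change in DBA/2J of each tested member of 17 gene lists; red points passed the test, open grey points did not, black bars are list medians and the dashed line is the median of all genes, 0.01. The interferon-stimulated list has the highest median, 1.52, and among those shown fatty acid oxidation and endothelial markers have the lowest, -0.34 and -0.50; the endothelial median is -0.14 without DBA/2J replicate 4.

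Of 42 cytochrome P450 enzymes of drug and steroid metabolism tested, 16 were called higher and 2 lower, against 9.5% and 3.78% of all genes, and 24 were not called. Their median log2 fold change was 0.38, and DBA/2J had the highest strain mean for 6 of them. Without DBA/2J replicate 3, 10 were called higher. Members of the Cyp2b and Cyp2c clusters led. Cyp2c55 was at 89.8, 140 and 19.6 CPM against 1.35 to 26.3 CPM, a log2 fold change of 4.21 ± 0.26 (adjusted p = 1e-11). Replicate 4 was far below the others and inside the NOD/ShiLtJ range, and the log2 fold change was 4.67 without it and 3.6 without replicate 3. Cyp2b10, the usual marker of the nuclear receptor CAR, was also uneven, at 898, 819 and 153 CPM against a median of 162 CPM (2.07 ± 0.31). Cyp2c67 was even and outside all others, at 558, 584 and 505 CPM against 75.6 to 409 CPM, with 1.89 ± 0.22. Cyp2b13, a gene expressed mainly in females, was at 542, 731 and 318 CPM against a median of 218 CPM (2.78 ± 0.16), with 129S1/SvImJ nearly devoid of it. Reads of Cyp2b13 and Cyp2c67 were divided with their close relatives in all libraries. Some calls in this list did not mark a high level: Cyp2c39 was called higher at 0.75 although DBA/2J, at a mean of 473.5 CPM, was below the mean of 605.6 CPM over the other strains.

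Cyp3a13 and Cyp2a22 were the P450 genes called lower. Cyp3a13 was at 54.8, 58.6 and 41.4 CPM against a median of 196 CPM, the lowest strain mean, with a log2 fold change of -1.74 ± 0.22. Cyp2a22 was at 5.07, 5.93 and 5.04 CPM against a median of 65.0 CPM, and PWK/PhJ was lower still. Ahr, the dioxin receptor whose low-affinity allele is carried by DBA/2J, had a log2 fold change of -0.15 and was not called, and its target Cyp1a2 was at 1050, 1113 and 779 CPM against a median of 763 CPM. Gclm, the modifier subunit of glutathione synthesis, was the single called gene of 16 in the AHR and NRF2 list, against 13.3% of all genes, and DESeq2 called 2 of the list lower. It was at 67.0, 54.2 and 83.8 CPM against 80.5 to 202 CPM (-0.98 ± 0.18) and was called against all 8 strains. Of 47 conjugation enzymes, 15 were called higher and 4 lower, against 9.5% and 3.78% of all genes, and DBA/2J had the highest strain mean for 0 of the 47.

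Of 20 bile acid genes, 4 were called lower and 0 higher, against 3.78% and 9.5% of all genes, with 1 higher at an unadjusted p under 0.05 and 1 higher by DESeq2. The list's median log2 fold change was -0.09, and DBA/2J had the lowest strain mean for 1 of the 20. Without DBA/2J replicate 4, edgeR called 1 lower, and without replicate 3 it called 2. The cholesterol exporters Abcg5 and Abcg8 were at 67.3, 63.4 and 52.5 CPM and at 90.8, 74.8 and 73.4 CPM, against medians of 109 and 154 CPM. Abcc2, which exports conjugated bilirubin, was at 390, 298 and 239 CPM against a median of 451 CPM, and Cyp7b1, of the alternative bile acid pathway, had a log2 fold change of -0.95 ± 0.23 (adjusted p = 0.0662 without DBA/2J replicate 4). The call of Cyp7b1 came with high means in PWK/PhJ (864 CPM) and CAST/EiJ (373 CPM), while the DBA/2J mean of 49.9 CPM was above those of 129S1/SvImJ and A/J. Cyp7a1, which controls the classical pathway, was at 60.9, 233 and 44.1 CPM and was not called. The 2 hepcidin genes, of which Hamp encodes the iron hormone, went in opposite directions. Hamp2 was at 5076, 4697 and 3286 CPM against a median of 314 CPM (3.20 ± 0.21), with PWK/PhJ nearly as high. Hamp was at 328, 239 and 267 CPM against a median of 708 CPM (-0.95 ± 0.30), but the means of NZO/HlLtJ and CAST/EiJ, 116 and 164 CPM, were lower still, and its call was lost without any 1 of the DBA/2J libraries (adjusted p = 0.0729 to 0.183). Counts were divided between such copies in all libraries.

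Of 22 complement genes, 7 were called higher, against 9.5% of all genes, led by C6 (2.02 ± 0.25, with a mean of 27.4 CPM in DBA/2J and 83.9 CPM in PWK/PhJ), and Hc was the member called lower (-1.02 ± 0.17), with NOD/ShiLtJ lower still. Without DBA/2J replicate 3, 3 complement genes were called higher. Igfbp1, an insulin-repressed binding protein of growth factors, was at 17, 43.2 and 46.3 CPM against 39.2 to 388 CPM, the lowest strain mean (-2.17 ± 0.46). Bhmt and Ahcy, enzymes of the methionine cycle, were called higher at 1.14 ± 0.19 and 2.71 ± 0.10, with Ahcy at 1180, 1300 and 1339 CPM against a median of 122 CPM. PWK/PhJ, C57BL/6J and A/J were also high for Ahcy, with means of 1341, 1168 and 888 CPM. Ahcy has processed copies and divided counts in all libraries. In the lists of chromatin regulators (31 genes), circadian genes (17) and immediate early genes (15), 0 members were called with edgeR, against 13.3% of all genes. At an unadjusted p under 0.05 there were 2, 2 and 3 members, against 3497 of all 14482 genes, and DESeq2 called 0, 1 and 2. Their median log2 fold changes were 0.05, 0.06 and -0.22.

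Markers of other liver cells were set beside these results. Kupffer cell markers, of the resident macrophages, summed to 306, 365 and 141 CPM in DBA/2J replicates 2, 3 and 4, within 167 to 727 CPM in the other libraries except for replicate 4, which was the lowest of all 27. Endothelial markers summed to 247, 223 and 89.2 CPM against 75.4 to 992, and stellate cell markers to 133, 117 and 60.6 CPM against 33.2 to 211. In bulk libraries, fewer cells of a type and less RNA per cell cannot be told apart. Against 9.5% of all genes called higher and 3.78% lower, 0 of 12 Kupffer markers were called by edgeR or DESeq2 and 0 had an unadjusted p under 0.05, and of 12 endothelial markers Stab2 was the single call (0.96 ± 0.31, adjusted p = 0.038), lost without DBA/2J replicate 2 (adjusted p = 0.416) or replicate 3 (0.167). DESeq2 called 0 endothelial markers, and 1 was higher and 1 lower at an unadjusted p under 0.05 with edgeR. The median of the endothelial markers was -0.50, and 2 of the 12 had a positive log2 fold change. This median was -0.14 without DBA/2J replicate 4 and -0.73 without replicate 3. Of 12 stellate markers, Reln, Col3a1 and Lum were called higher, against 9.5% of all genes, and 0 lower, with Lum not called without DBA/2J replicate 2 (adjusted p = 0.0594). The list's median was 0.09, with 7 of the 12 log2 fold changes positive, and it was -0.21 without DBA/2J replicate 2 and 0.44 without replicate 4. Reln was at 32.6, 27.4 and 24.5 CPM, above all other libraries. Lymphocyte and neutrophil markers were near 0, with 3 of 14 and 3 of 10 passing the filter on low counts and Klrd1, Ly6g, Ngp and Ltf at 0 counts in DBA/2J.

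The interferon-stimulated genes summed to 472, 638 and 477 CPM in DBA/2J against 147 to 382 CPM in the other libraries. The number of interferon-stimulated genes called higher was 25 without replicate 4, 22 without replicate 3 and 26 with the means of the Kupffer and endothelial markers as covariates. Calls over all genes moved too: 1376 were higher in the main comparison, 924 without replicate 3 and 1910 with these covariates. Cytochromes P450 summed to 48419, 54325 and 32068 CPM and were thus also lowest in replicate 4, as were the hepatocyte markers, at 168700, 234290 and 141152 CPM. Of the P450 genes, 18 were called higher without replicate 4 and 10 without replicate 3. The part of preparation or cell makeup in the interferon, P450 and sterol results was not tested.

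**Figure D5:**
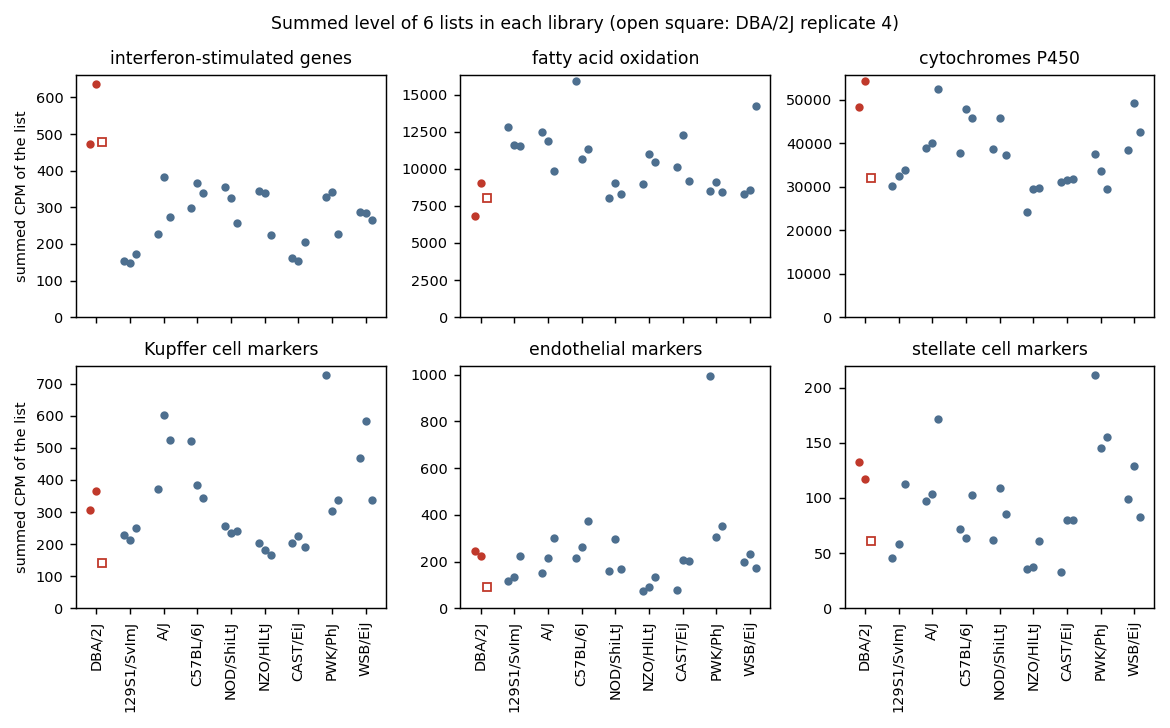
Summed CPM of 6 gene lists in each library, by strain, with DBA/2J in red and its replicate 4 as an open square; the axes start at 0 and differ between panels. Interferon-stimulated genes of DBA/2J lie at 472 to 638 CPM, above all other libraries, while replicate 4 is the lowest of all libraries for Kupffer cell markers, at 141 CPM.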

How the data were processed

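RNA of female hepatocytes from 9 strains was sequenced in 27 libraries, 3 per strain. The authors deposited expected counts per gene, estimated counts that need not be whole, in 1 table. The submitters' processing notes name GRCm38, mm10, FastQC 0.11.5 and DESeq2. The aligner, counting tool and annotation are not given in the sources used here, nor whether strain genomes were used. Per the labels' protocols, poly(A) RNA went into TruSeq libraries; the protocol does not state that strand was kept.

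Counts were rounded and analysed with edgeR 4.0.16 (R 4.3.3): TMM scaling, filterByExpr, which kept 14482 of 43346 genes, and a quasi-likelihood fit with 1 mean per strain over all 27 libraries. The contrast, the 8 pairwise tests and the largest of their p-values were adjusted by Benjamini-Hochberg. Fold changes and CPM come from this fit and its scaling, and all adjusted p-values in the text are edgeR's quasi-likelihood values unless another tool is named. Gene positions are from GENCODE M21 (GRCm38). The model was run on simulated counts in which the 8 other strains had the same mean for each gene. That run cannot show how the tests behave when these strains differ, and its outcome is not reported here. Counts per library of 17015932 to 35078483 set the precision, and the floor for a count of 0 is 3 counts.

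The members and gene lists were chosen with earlier results of these data known. Named genes were the label checks, the set-apart protein-coding genes with the largest increases and decreases (up to 12 each, at least 5 CPM, whole counts in at least 14 libraries, and up to 4 each with fewer), the 5 with the smallest p, the called member of each list with the largest change in each direction, and neighbouring runs. Vipr2, Fmo6, Gm36958, Gm14403, 5830417I10Rik, the rule for genes outside all libraries and the genes it names, and the other list members were chosen after their values were seen. Alternatives were DESeq2 1.42.0, other scaling and filters, a replicate block, other strain sets, marker covariates, a GC correction and leaving out each library. Some results are not reported here.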

Additional observations from a re-analysis of the deposited data

How the results depend on the processing

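The 1923 calls became 2121 with DESeq2, 1938 with median-of-ratios size factors, 2038 without a filter, 1782 with a mean of at least 10 counts, 1915 after removal of a GC trend and 1440 against the 5 other classical strains. With 2 groups and no strain term there were 61 calls, 33 higher and 28 lower, of which 52 lay outside all other libraries; being set apart cannot be computed in that fit. With Kupffer and endothelial means as covariates there were 2964 calls, 1054 of them lower. Against the classical strains alone 297 genes were outside, a rule with fewer libraries to clear in this setting. There 61 genes were set apart, with the largest of 5 pairwise p-values taken in place of the largest of 8. Leaving out each library in turn gave 1226 to 2129 calls, 924 to 1520 higher and 302 to 609 lower, with 10 to 17 genes set apart and 116 to 277 outside, the latter without DBA/2J replicate 4. The lowest numbers of calls came without DBA/2J replicate 3 (1226) and replicate 2 (1276). With a replicate block there were 1599 calls, 1165 higher and 434 lower, with 13 genes set apart and 115 outside, and 1548 of the 1923 calls were kept. Correlations of deviations between DBA/2J libraries and same-numbered libraries ran from -0.25 to 0.28, so the numbers were not taken to pair the samples. Of the values of the 87 named genes under the alternatives, 3037 kept their call and direction, 89 lost the call, 3 gained one and 2 changed sign, and 31 of the 87 genes kept every call. The sign changes were those of Lcn2, to -0.61 with 2 groups, and of Alas2, to -0.07 against the classical strains. The cause of these changes was not tested. At these depths, levels of a few counts per library, as for Vipr2 in other strains, are limited by counting error.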

Other observations

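Some of the largest differences belonged to genes that DBA/2J shared with other strains, so that DBA/2J was not outside all libraries. The 5 largest in each direction were taken among genes with whole counts and at least 20 CPM. Corin, a protease that activates natriuretic peptides in the heart, was at 56.7, 68.4 and 37.9 CPM in DBA/2J, with strain means of 36.3 CPM in WSB/EiJ and 25.4 CPM in NOD/ShiLtJ and at most 2.17 CPM in the other 6 strains (log2 fold change 4.85 ± 0.17). Dct, an enzyme of melanin synthesis, was at 86.1, 104 and 32 CPM, with 44.7 CPM in NZO/HlLtJ and 34.2 CPM in WSB/EiJ. Ctse, the protease cathepsin E, was at 54.2, 50.8 and 33.1 CPM, below 129S1/SvImJ at 72.8 CPM and WSB/EiJ at 67.3 CPM. A1bg, a plasma protein, was at 4913, 6652 and 1599 CPM, with replicate 4 the lowest, and reached 10574 CPM in a WSB/EiJ library.

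In the downward direction, Akr1c18, the hydroxysteroid dehydrogenase that inactivates progesterone, was below 0.2 CPM in all DBA/2J libraries and in 129S1/SvImJ, A/J and C57BL/6J on average, while CAST/EiJ, PWK/PhJ and NZO/HlLtJ had means of 97.9, 81.5 and 50.8 CPM. Col5a2 and Ces2h were near or below 1 CPM in DBA/2J and in most classical strains, with means of 241 and 113 CPM in PWK/PhJ and 552 and 153 CPM in WSB/EiJ, and Ces2h had a mean of 54 CPM in CAST/EiJ. Cyp2c23, which converts arachidonic acid, was at 21.5, 30.5 and 24.9 CPM in DBA/2J, somewhat above the means of A/J, NOD/ShiLtJ and NZO/HlLtJ (11.8 to 16.6 CPM) and below those of the other 5 strains (336 to 828 CPM).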
